A study of Homo sapiens with 12 samples.

Results

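The carnitine shuttle is described here through 8 genes: *CPT1A*, *CPT1B*, *CPT1C*, *CPT2*, *SLC25A20*, *CRAT*, *CROT* and *SLC22A5*. They were chosen by name, and their rows were found by Entrez gene identifier, so that 8 of the 23705 genes of the count table were taken. A375 human metastatic melanoma cells were treated for 24 h with vehicle (DMSO), with rosiglitazone (RGZ), an agonist of PPARγ, at 5 μM, with T0070907, an antagonist of it, at 2 μM, or with both. The experiment was done 3 times, and RNA of the technical replicates of a condition was pooled within each experiment, which gave 3 libraries for each of the 4 conditions. A375 is a single established cell line, so the spread is that between experiments with this line and not between tumours.

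Long-chain fatty acids enter the mitochondrial matrix only as carnitine esters. CPT1 on the outer membrane makes the ester and is the step that malonyl-CoA inhibits, the carrier encoded by *SLC25A20* exchanges it for free carnitine across the inner membrane, and CPT2 turns it back into acyl-CoA for β-oxidation. *CPT1A* is the isoform best known from liver, *CPT1B* that of muscle and *CPT1C* that of brain, while *SLC22A5* encodes the plasma membrane carnitine transporter OCTN2, and *CRAT* and *CROT* encode transferases for short-chain and medium-chain acyl groups. *CPT1A* and *SLC25A20* are known target genes of the PPAR family.

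The libraries held 8319455 to 11375227 counts. The melanocyte lineage genes *SOX10*, with 1558 to 4984 counts, and *MITF*, with 240 to 666 counts, were present in every library, whereas the pigment genes were at or near 0 (*TYR* had 0 counts in every library and *PMEL* 3 to 13). The summed level of the 9 lineage markers was 291 to 532 CPM in vehicle and 239 to 458 CPM with RGZ, and that of 6 markers of other cell types was at most 6.54 CPM. With the experiment number in the model as a replicate block, *S100B* and *MITF* fell with RGZ (by 1.02 and 0.34 on the log2 scale), *S100B* rose with T0070907 (0.59), and *S100B*, *MITF* and *S100A1* rose from RGZ to the combination (1.34, 0.27 and 0.44). None of these was called without the block, and their part in the results below was not tested.

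*CPT1A* and *SLC25A20* were the 2 members with the largest changes with RGZ, and 1 start of each gene is shown for that reason. RefSeq promoter windows of GRCh38.p14 were held for 6 of the 8 genes, those of *CPT1B* and *CRAT* not being in the table used. Only the first window listed for a gene was searched, and any other start of the gene was not. *CPT1A* has 8 coding transcripts in the annotation used, and whether A375 cells use the start shown was not tested. The letters AGGTCA, the half-site read by PPARγ and other nuclear receptors, were found exactly on neither strand of any of the 6 windows of 300 bases, and 13.9% of 27305 promoters of that length held them. A direct repeat of that half-site with 1 spacer base, searched on both strands with up to 3 mismatches over its 12 fixed letters, was matched at 2 places in the *SLC25A20* window and at none in the other 5, and 20.9% of all promoters held such a match. The sequences run 5′ to 3′ on the minus strand from 250 bases before the start to 20 bases after it, at chr11:68844258-68844527 for *CPT1A* and chr3:48898863-48899132 for *SLC25A20*, and capitals mark the 2 matches, each with 3 mismatches. A match is a likeness of letters and not evidence of binding.
CPT1A: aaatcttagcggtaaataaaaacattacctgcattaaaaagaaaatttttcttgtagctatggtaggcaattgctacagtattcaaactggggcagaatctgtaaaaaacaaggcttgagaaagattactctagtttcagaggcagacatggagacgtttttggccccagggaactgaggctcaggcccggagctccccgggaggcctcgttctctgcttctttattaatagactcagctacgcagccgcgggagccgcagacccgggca
SLC25A20: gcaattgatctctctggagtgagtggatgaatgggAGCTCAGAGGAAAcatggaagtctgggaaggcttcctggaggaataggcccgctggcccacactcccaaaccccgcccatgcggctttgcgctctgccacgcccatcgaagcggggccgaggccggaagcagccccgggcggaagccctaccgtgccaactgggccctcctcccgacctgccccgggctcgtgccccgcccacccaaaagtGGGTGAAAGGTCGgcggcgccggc

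Levels are given as TMM-scaled CPM, the count relative to the size of the library, and a log2 fold change as edgeR's estimate with its standard error (SE). In the order of experiments 1, 2 and 3, *CPT1A* (gene ID 1374) stood at 60.5, 57.0 and 69.5 CPM in vehicle and at 103, 104 and 113 CPM with RGZ. It stood at 33.7, 39.6 and 35.5 CPM with T0070907 and at 47.2, 59.0 and 65.9 CPM with the combination. The 3 RGZ libraries were the highest and the 3 T0070907 libraries the lowest of the 12, without overlap with vehicle, whereas the combination overlapped with vehicle.

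*CPT1A* rose 1.71-fold with RGZ (log2 fold change 0.78, SE 0.12, adjusted p = 0.00743), and was higher in 3 of 3 experiments, by 0.76, 0.87 and 0.70 on the log2 scale. This call was lost without vehicle replicate 1 (log2 fold change 0.76, adjusted p = 0.0523) and kept in the other 5 fits that left out 1 library. With the replicate block it was kept in 6 of 6 such edgeR fits (adjusted p = 3.42e-05 to 1.61e-04). With T0070907 alone the log2 fold change was -0.78 (SE 0.12), and *CPT1A* was lower in 3 of 3 experiments. That difference did not pass the test without the replicate block (adjusted p = 0.116) and passed it with the block (adjusted p = 1.92e-04), where *CPT1A* had rank 6 of 13522 tested genes by p. Of the fits that left out 1 library, it was called in 6 of 6 with the block and in 0 of 6 without it.

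With both compounds *CPT1A* fell relative to RGZ alone by 0.89 on the log2 scale (SE 0.12, adjusted p = 0.00445), and was lower in 3 of 3 experiments. Its level with both compounds did not differ detectably from vehicle (log2 fold change -0.12, 95% confidence interval -0.37 to 0.14, adjusted p = 0.752). It was higher than with T0070907 alone in 3 of 3 experiments (log2 fold change 0.66), a difference that passed with the block (adjusted p = 3.27e-04) and not without it (adjusted p = 0.117). Without replicate 1 of the combination, the value was 0.78 and passed without the block too (adjusted p = 0.0176). With the block, the call held in 6 of 6 fits that left out 1 library.

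The inner membrane carrier *SLC25A20* (gene ID 788) had the largest increase with RGZ among the 7 tested members. It stood at 27.6, 30.2 and 31.5 CPM in vehicle and at 55.4, 57.2 and 58.3 CPM with RGZ. With T0070907 it stood at 23.3, 23.4 and 22.6 CPM, and with the combination at 28.9, 32.4 and 36.8 CPM. RGZ libraries lay above and T0070907 libraries below all vehicle libraries, and those of the combination overlapped with vehicle.

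*SLC25A20* rose 1.91-fold with RGZ (log2 fold change 0.94, SE 0.09, adjusted p = 4.64e-04), by 1.00, 0.92 and 0.88 on the log2 scale in the 3 experiments. With the combination it fell relative to RGZ by 0.80 on the log2 scale (SE 0.09, adjusted p = 0.00174). With T0070907 alone the log2 fold change was -0.37 (SE 0.09), which was called only with the block (adjusted p = 0.0493, against 0.808 without it). That call was lost in all 6 blocked fits that left out 1 library (adjusted p = 0.0764 to 0.376). Relative to T0070907 alone, the combination differed by 0.50, called with the block (adjusted p = 0.0023) and not without it (adjusted p = 0.117). Without replicate 1 of the combination, it was called without the block (adjusted p = 0.037).

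*SLC22A5* (gene ID 6584), which brings carnitine into the cell, stood at 14.0, 15.0 and 11.2 CPM in vehicle and at 16.0, 20.3 and 15.6 CPM with RGZ. It stood at 10.9, 10.1 and 10.2 CPM with T0070907 and at 9.88, 15.8 and 12.9 CPM with the combination. Neither single treatment overlapped with vehicle, and the combination overlapped with RGZ by 1 library. The log2 fold change with RGZ was 0.37 (SE 0.18, adjusted p = 0.49, or 0.0873 with the block), and with T0070907 alone -0.37 (adjusted p = 1.00, or 0.328 with the block). The combination was lower than RGZ alone in 3 of 3 experiments (log2 fold change -0.43, adjusted p = 0.334), which was called with the block (adjusted p = 0.0405), but the call held in only 1 of the 6 blocked fits that left out 1 library, that without replicate 2 of the combination (adjusted p = 0.0168, against 0.0584 to 0.2 in the other 5).

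**Figure D1:**
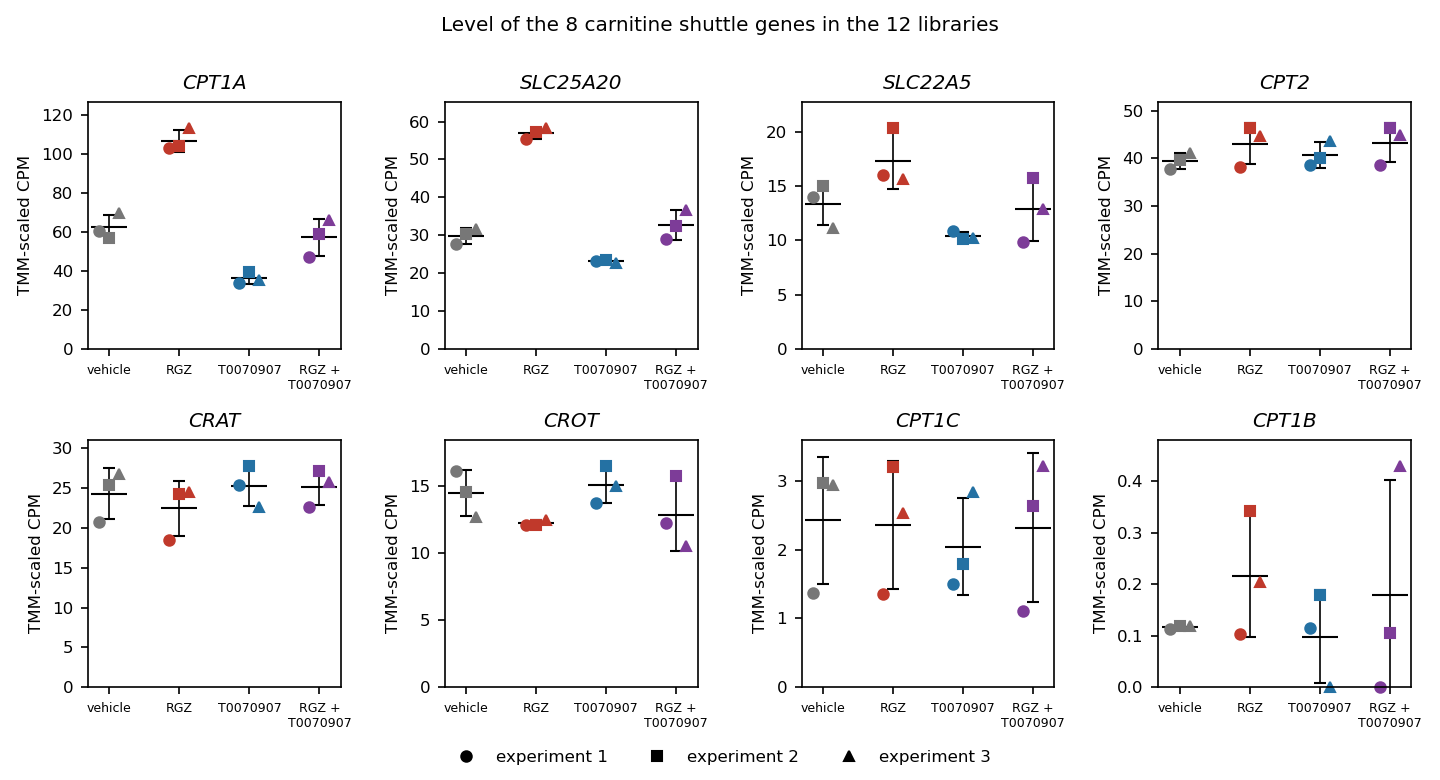
TMM-scaled CPM (y axes, each from 0) of the 8 genes in the 4 conditions (x axes). Symbols are the libraries of experiments 1 to 3, and black marks are the mean ± SD of 3 libraries, with bars cut at 0. *CPT1A* and *SLC25A20* are highest in the RGZ libraries and lowest in the T0070907 libraries, and *CPT1C* is lowest in experiment 1 in every condition.

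*CPT2* (gene ID 1376), the inner transferase, stood at 37.8, 39.6 and 41.2 CPM in vehicle and at 38.3, 46.4 and 44.8 CPM with RGZ. It stood at 38.6, 40.0 and 43.8 CPM with T0070907 and at 38.7, 46.4 and 45.0 CPM with the combination. All 4 conditions overlapped. For RGZ against vehicle the log2 fold change was 0.12, with a 95% confidence interval of -0.08 to 0.33 that lies below the estimates for *CPT1A* and *SLC25A20*.

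*CRAT* (gene ID 1384), the short-chain transferase, ranged from 18.5 to 27.7 CPM over the 12 libraries, with condition means of 24.3 ± 3.15 in vehicle, 22.5 ± 3.43 with RGZ, 25.3 ± 2.55 with T0070907 and 25.2 ± 2.33 with both (SD, n = 3 each). *CROT* (gene ID 54677), the medium-chain transferase of peroxisomes, stood at 16.1, 14.5 and 12.7 CPM in vehicle and at 12.1, 12.1 and 12.5 CPM with RGZ. The RGZ libraries of *CROT* were below those of vehicle in 3 of 3 experiments without overlap. The share of all tested genes whose libraries separate in this way was not counted, here or for the other members. The log2 fold change of *CROT* with RGZ was -0.24 (SE 0.15) and did not pass the test (adjusted p = 0.629, or 0.296 with the block). For *CRAT* the same comparison gave -0.11, with a 95% confidence interval of -0.42 to 0.19.

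Of the other CPT1 isoforms, *CPT1C* (gene ID 126129) had 9 to 33 counts in a library, and its mean was 2.05 to 2.43 CPM in the 4 conditions. Its level was lowest in experiment 1 in every condition, at 1.11 to 1.50 CPM. The log2 fold change with RGZ was -0.04, with a 95% confidence interval of -1.01 to 0.93 that covers the change of *CPT1A* (0.78). With the block, which takes up the difference between experiments, it was -0.05 with an interval of -0.58 to 0.49, which does not cover that change. *CPT1B* (gene ID 1375) had 0 to 4 counts, did not pass the filter on low counts and was not tested. A count of 0 allows a level of up to 3 counts, which is 0.258 to 0.371 CPM in these libraries. *CPT1B* overlaps the readthrough gene *CHKB-CPT1B* on the same strand, which had 0 counts in every library, as *CHKB* had 0 or 1, and how reads shared by the 3 genes were counted was not stated, so the level of *CPT1B* is uncertain.

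Divided by transcript length, *CPT1A* supplied 93.2% ± 2.36 of the summed CPT1 level in vehicle, 95.9% ± 1.64 with RGZ, 90.5% ± 2.54 with T0070907 and 93.1% ± 2.59 with both (SD, n = 3 each). *CPT1C* supplied 6.41%, 3.74%, 9.03% and 6.39%, respectively. By these counts *CPT1A* was the main CPT1 transcript in all 4 conditions, with the level of *CPT1B* uncertain as stated above.

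On the scale of CPM per kb of the longest transcript, the order of levels in vehicle was *SLC25A20* (15.9), *CPT1A* (11.9), *CRAT* (8.80), *CPT2* (8.71), *CROT* (4.55), *SLC22A5* (1.28), *CPT1C* (0.822) and *CPT1B* (0.0439). Only *CRAT* and *CPT2* overlapped with their neighbour in that order. The longest transcript could be of any type, with 10435 bases for *SLC22A5* and 4539 for *CPT2*. The order between genes rests on this choice, since the transcripts present in the cells were not known. With RGZ, *SLC25A20* (30.3 per kb) and *CPT1A* (20.4 per kb) stood further above *CPT2* (9.50 per kb). With T0070907, *CPT1A* was rank 4 at 6.93 per kb, below *CRAT* (9.15) and *CPT2* (8.99), and its libraries overlapped with those of neither neighbour in the order. With both compounds, *CPT1A* was second again at 11.0 per kb and overlapped with *CPT2* at 9.55.

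Beside the whole table, 2 of the 8 members were called with RGZ, both higher, where 1.24% of the 13522 tested genes were called and 0.947% called higher. With the replicate block the same 2 were called, where 9.3% of genes were called and 4.95% called higher. With T0070907 alone edgeR called 0 members, where 0.0074% of genes were called. There 419 genes had an unadjusted p under 0.05, a smaller share than the 0.05 awaited if no gene changed. With the block edgeR called 2 members, both lower, where 0.91% were called and 0.673% called lower. DESeq2 called 1 member there, with and without the block, where it called 114 and 21 genes in all, respectively.

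The combination against RGZ gave 2 members, both lower, where 1.24% of genes were called, and 3 members, all lower, with the block, where 11.4% were called and 5.88% called lower. The combination against T0070907 gave 0 members, where 0.037% of genes were called and 2028 had an unadjusted p under 0.05, and 2 members, both higher, with the block, where 8.76% were called. DESeq2 called 1 member without the block and 2 with it, where it called 83 and 880 genes in all. For the combination against vehicle, edgeR called 0 members and 0% of genes both without and with the block, although 1438 and 2868 genes had an unadjusted p under 0.05. DESeq2 called 0 members there too, but over all genes it called 0 without and 227 with the block. These comparisons share libraries and are not independent of each other.

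**Figure D2:**
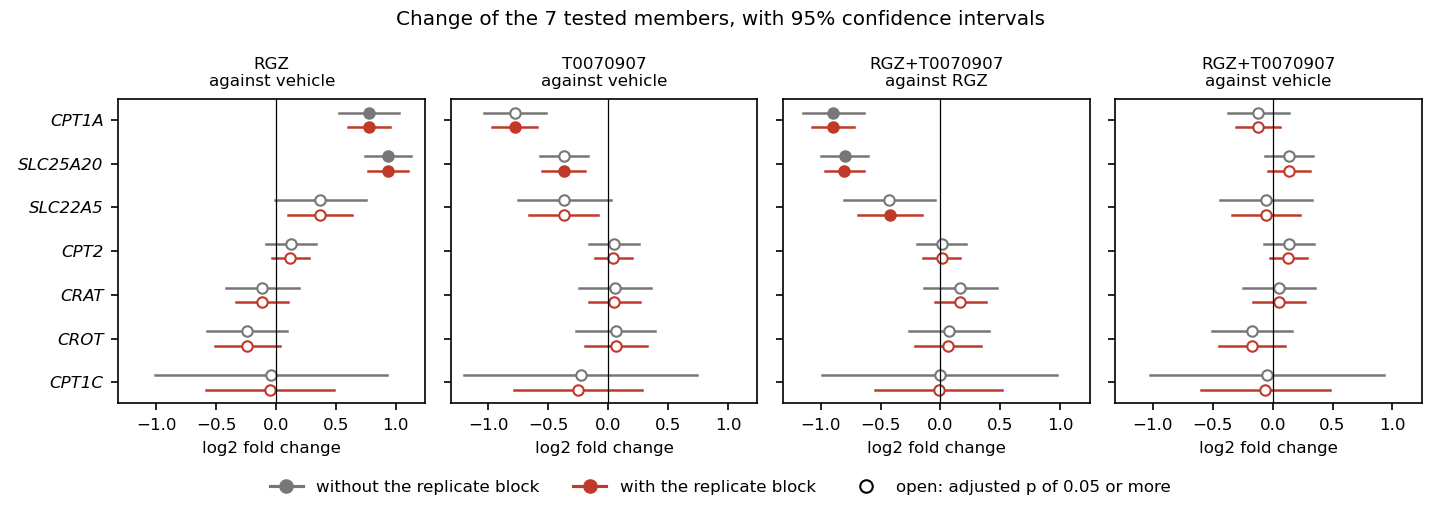
Log2 fold changes (x axis) of the 7 tested members (y axis) in 4 comparisons, with 95% confidence intervals. Grey is the model without and red the model with the replicate block, and filled points have an adjusted p under 0.05. *CPT1A* and *SLC25A20* are filled in both models for RGZ against vehicle (0.78 and 0.94) and for the combination against RGZ (-0.89 and -0.80), and no member is filled for the combination against vehicle.

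The interaction asks whether RGZ changed a gene by a different amount in the presence of T0070907. For *CPT1A* it was -0.11 on the log2 scale (SE 0.17, adjusted p = 1.00, or 0.791 with the block), and its sign was negative in 2 of 3 experiments. For *SLC25A20* it was -0.43 (SE 0.13), negative in 3 of 3 experiments, but it did not pass over all genes (adjusted p = 1.00, or 0.16 with the block). No member was called by edgeR, where 0% of genes passed without the block and 0.281% when it was included. In these fits 406 and 1324 genes had an unadjusted p under 0.05, and the 406 are a smaller share than the 0.05 awaited if no gene changed. DESeq2 called 0 members as well, where it called 1 gene without and 52 with the block.

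A ratio of 2 genes within a library does not depend on how libraries are scaled. The log2 ratio of *CPT1A* to *CPT2* counts was 0.65 ± 0.12 in vehicle, 1.31 ± 0.13 with RGZ, -0.17 ± 0.14 with T0070907 and 0.39 ± 0.14 with both (SD, n = 3 each). The RGZ libraries lay above and the T0070907 libraries below vehicle without overlap, as they did for the ratios to *CRAT* and *CROT*. With 3 libraries against 3 the exact permutation test, two-sided, can give no p below 0.1, which was the p of these comparisons (adjusted p = 0.2 over the 30 ratios compared).

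The log2 ratio of *CPT1A* to *SLC25A20* was 1.06 ± 0.13 in vehicle and 0.90 ± 0.05 with RGZ, which overlapped (exact permutation p = 0.2), although it was lower with RGZ in 3 of 3 experiments, by differences of -0.24, -0.05 and -0.18. It was 0.65 ± 0.11 with T0070907 and 0.80 ± 0.09 with both, each below vehicle without overlap (exact permutation p = 0.1, adjusted p = 0.2). Within experiments it was lower than vehicle in 3 of 3 with each of these treatments too.

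**Figure D3:**
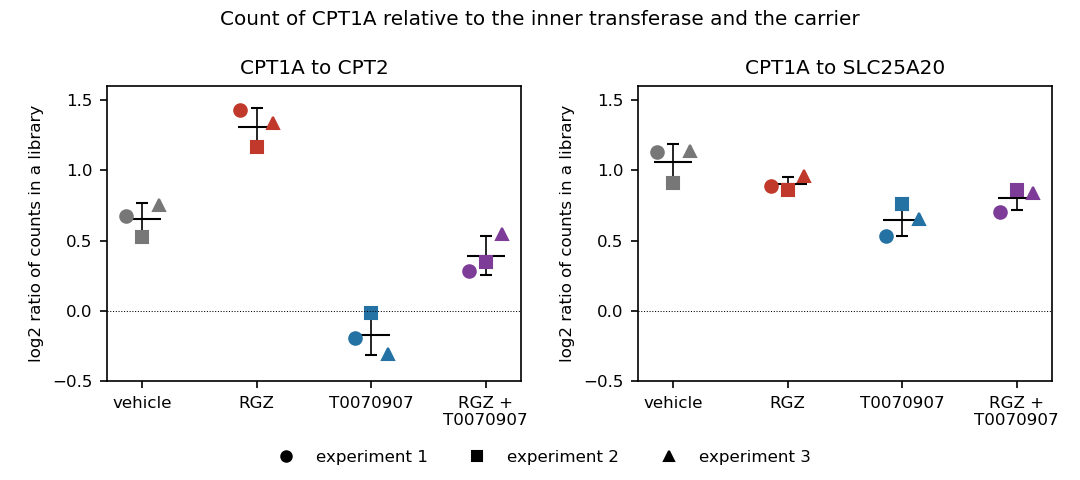
Log2 ratio (y axes) of the *CPT1A* count to that of *CPT2* (left) and of *SLC25A20* (right) in each library, by condition (x axes). Symbols are experiments 1 to 3, and black marks are the mean ± SD of 3 libraries. The ratio to *CPT2* runs from -0.17 with T0070907 to 1.31 with RGZ in the mean, and the ratio to *SLC25A20* from 0.65 to 1.06.

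Across the 12 libraries, each log2 CPM being centred on its experiment, the 5 genes most like *CPT1A* among 13217 others were *CXorf38* (Pearson's r = 0.991), *TINAGL1* (0.990), *HSDL2* (0.989), *HR* (0.987) and *AP3B2* (0.985). Of the members, *SLC25A20* had an r of 0.960 (rank 81) and *SLC22A5* one of 0.883 (rank 423), whereas *CPT2* had 0.334, *CPT1C* 0.262, *CRAT* -0.511 and *CROT* -0.559. These values describe libraries that share 4 treatments. Without centring, 1 of those 5 genes stayed among the top 5.

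Of 6 acyl-CoA synthetase and binding genes, which make or bind the substrate of CPT1, 5 were tested, and *ACSL3*, a long-chain synthetase, rose with RGZ (log2 fold change 0.96, adjusted p = 0.00375). With the block, *ACSL4*, *ACSL5* and the acyl-CoA binding protein *DBI* rose as well, so that 4 of 5 were called higher, where 4.95% of all tested genes were called higher with the block and 0.947% without it. *ACSL1* did not pass, at -0.08. The median over the list was 0.44, against -0.01 over all tested genes.

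Of 16 genes of mitochondrial β-oxidation, which act after CPT2, 15 were tested and 3 rose with RGZ. These were the very-long-chain dehydrogenase *ACADVL* (0.50, adjusted p = 0.0268), the electron carrier subunit *ETFA* (0.67, adjusted p = 7.26e-04) and the thiolase *ACAA2* (0.83, adjusted p = 0.00148). With the block, *ACADS*, *ETFB*, *ETFDH* and *HADHA* rose too, which made 7 of 15, and none fell, beside the same shares of all genes (0.947% called higher without the block and 4.95% with it). The median of the list was 0.24. Among those not called, *ECHS1* had a log2 fold change of 0.02 and *HADHB* one of 0.20.

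With T0070907 alone edgeR called no gene of these lists without the block. With it, *ACSL3*, *ACADVL*, *ETFA* and *ACAA2* fell, by 0.32, 0.45, 0.44 and 0.71 on the log2 scale. With both compounds, *ACSL3*, *ACSL4*, *ACADVL*, *ETFA* and *ACAA2* fell relative to RGZ alone in the model without the block. Relative to T0070907 alone, *ACAA2* was higher with both (0.83, adjusted p = 0.011 without the block). With the block, *ACSL3*, *DBI*, *ACADVL*, *ETFA* and *ETFB* were called higher too (0.51, 0.57, 0.50, 0.47 and 0.44), where 8.76% of genes were called. The interaction with the block was 0.00094 for *ACADVL*, 0.0067 for *ACAA2* and -0.20 for *ETFA*, none of them called.

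Peroxisomal β-oxidation supplies acyl groups to *CRAT* and *CROT*. Of 11 of its genes that were tested, only *ECH1* was called with RGZ (0.89, adjusted p = 0.0109), also with the block, and the median was 0.01. Over all tested genes, 1.24% were called with RGZ without the block and 9.3% with it, so 1 of 11 with the block is near that share. The same shares stand beside the lists that follow. *ECH1*, a peroxisomal and mitochondrial isomerase, fell with T0070907 in the model with the block, by 0.69 on the log2 scale. Of 9 genes of malonyl-CoA turnover and AMPK, which set the inhibition of CPT1, none was called with RGZ with or without the block, and the median was -0.02. Among them, *ACACA*, which makes malonyl-CoA, had a log2 fold change of 0.03, and the AMPK subunit genes *PRKAG1* and *PRKAA1* had values of -0.02 and -0.15. The largest values of the list in each direction, named after they were seen, were -0.36 for the other carboxylase *ACACB* (lower in 3 of 3 experiments, adjusted p = 0.617, or 0.162 with the block) and 0.23 for *MLYCD*, which removes malonyl-CoA (adjusted p = 0.749, or 0.466 with the block). Of 6 genes of carnitine synthesis and other uptake, 3 were tested, and the transporter *SLC22A4* rose with the block alone (log2 fold change 0.65, adjusted p = 0.00514, against 0.383 without it).

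**Figure D4:**
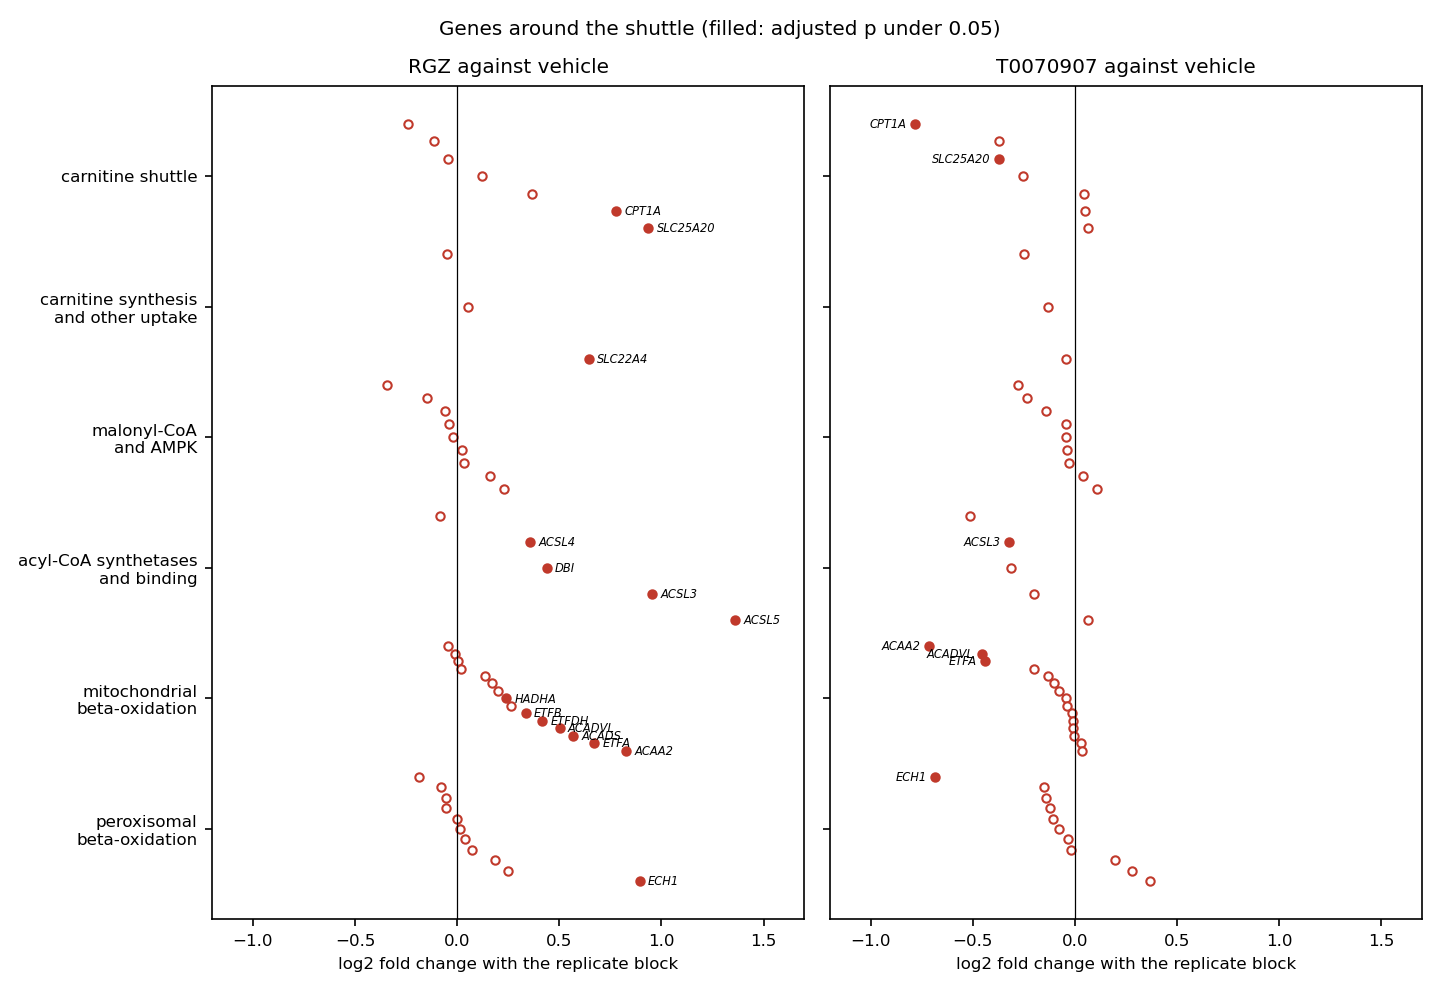
Log2 fold changes in the model with the replicate block (x axes) for the tested members and 5 lists of related genes (y axis), for RGZ (left) and T0070907 (right) against vehicle. Filled, named points have an adjusted p under 0.05. With RGZ the filled points all lie above 0, and 7 of 15 genes of mitochondrial β-oxidation are filled. With T0070907 the filled points all lie below 0.

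Overlapping genes limit 4 members. *CPT1B* shares its strand with *CHKB-CPT1B*, and *CPT2*, *CRAT* and *SLC22A5* overlap genes on the opposite strand, while *CPT1A*, *CPT1C*, *SLC25A20* and *CROT* overlap none in the annotation used. Whether strand was used in counting was not stated, so reads of opposite genes cannot be told apart. In bulk libraries, fewer cells that express a gene and less RNA per cell cannot be told apart either.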

How the data were processed

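RNA of A375 cells was sequenced in 12 libraries (TruSeq RNA, HiSeq). The authors deposited raw counts per gene by Entrez identifier, with no normalization. The submitters' processing notes name genome build hg 19, and the aligner, counter and strand setting are not given in the sources used here. Conditions and experiment numbers came from the sample titles. The table held 0 columns of other samples. Symbols were found for 23538 of 23705 genes.

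In R 4.3.3, edgeR 4.0.16 (TMM, filterByExpr, quasi-likelihood F test, 4 conditions, 12 libraries) tested 13522 genes. A call means a p-value under 0.05 after Benjamini-Hochberg adjustment over these genes. The SE is the log2 fold change over the square root of F. Alternatives were a replicate block, DESeq2 1.42.0, limma-voom (limma 3.58.1), other filters and scaling, and each library left out. The experiment numbers pair the libraries by their titles. Deviations from condition means correlated at 0.0793 to 0.758 (mean 0.554) within experiments against a mean of -0.27 between them. Since the mean of 3 libraries was subtracted, the value between experiments follows from that within them and is not a separate check. CPM per kb used the longest GENCODE 29 transcript. Ratios used a pseudocount of 0.5. Floors cover counting error only.

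All 8 members were described, with called genes of 5 pathway lists, up to 3 uncalled genes a list by highest CPM (*ACACB* and *MLYCD* were added after their values were seen), and the 5 genes most like *CPT1A*. Members and lists were chosen with earlier results of these data known. The fit was tested on simulated data.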

Additional observations from a re-analysis of the deposited data

Results flagged for a closer look

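The effect of RGZ on *ACSL3* was smaller when T0070907 was present, by the test of the difference itself, with the replicate block (interaction -0.44 on the log2 scale, SE 0.09, adjusted p = 0.0452 in edgeR, negative in 3 of 3 experiments). Without the block it did not pass (adjusted p = 1.00).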

How the results depend on the processing

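The increase of *CPT1A* and *SLC25A20* with RGZ and their decrease from RGZ to the combination kept their direction and stayed called in 8 of 8 alternatives that used all libraries or those of the conditions compared, at 0.77 to 0.78 and 0.93 to 0.94, and at -0.90 to -0.89 and -0.80. For T0070907 against vehicle, *CPT1A* gained its call with the block (-0.78), with DESeq2 (-0.78), with DESeq2 and the block (-0.78) and with no low-count filter (-0.78), which called 2, 1, 1 and 1 members. For the combination against T0070907, it gained its call with the block (0.66), with DESeq2 (0.67) and with both (0.66), which called 2, 1 and 2 members. The block changed no other *CPT1A* call. Over all genes, the block raised the number called from 167 to 1258 for RGZ, from 1 to 123 for T0070907, from 167 to 1545 for the combination against RGZ, from 5 to 1185 against T0070907 and from 0 to 38 for the interaction, and DESeq2 gave 302, 21, 318, 83 and 1. DESeq2 with the block gave 896, 114, 1071, 880 and 52, and 227 for the combination against vehicle, where edgeR gave 0. With only the conditions compared, 69, 41 and 0 genes were called for RGZ, the combination against RGZ and against T0070907, and no low-count filter gave 3 for T0070907 and 10 for the combination against it. Limma-voom and a minimum of 10 counts gave 0 for T0070907. The causes were not tested. The interaction had no fit with only the conditions compared, since it needs all 4. A ratio pseudocount of 2 turned no direction.

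With 1 library left out, the number of members called ran from 1 to 2 for RGZ and from 0 to 2 for the combination against T0070907. The value of *CPT1A* ran from 0.72 to 0.86 for RGZ against vehicle, from 0.55 to 0.78 for the combination against T0070907, from -0.23 to 0.0020 for the combination against vehicle and from -0.23 to 0.0057 for the interaction. Values near 0 that did not pass in these fits changed sign. Those of *CPT1C* ran from -0.33 to 0.24 for RGZ against vehicle, from -0.35 to 0.27 for the combination against vehicle, from -0.082 to 0.54 for the interaction, from -0.31 to 0.31 for the combination against RGZ and from -0.12 to 0.50 against T0070907. *CPT2* ran from -0.0080 to 0.083 for T0070907 against vehicle, from -0.12 to 0.037 for the interaction and from -0.070 to 0.083 for the combination against RGZ. *CRAT* ran from -0.22 to 0.0079 for RGZ, from -0.046 to 0.13 for T0070907, from -0.049 to 0.13 for the combination against vehicle, from -0.011 to 0.21 for the interaction and from -0.078 to 0.071 for the combination against T0070907. *CROT* ran from -0.022 to 0.15 for T0070907, from -0.17 to 0.14 for the interaction and from -0.11 to 0.20 for the combination against RGZ, and *SLC22A5* from -0.23 to 0.098 for the combination against vehicle and from -0.24 to 0.093 for the interaction. For *CRAT*, the combination against T0070907 also turned to 0.00089 with the block, 0.00099 with DESeq2's size factors, 0.00025 with DESeq2 and the block and 0.0037 with limma-voom, and limma-voom turned the interaction of *CROT* to -0.015.

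With the block and 1 library left out, *CPT1C* ran from -0.26 to 0.16 for RGZ, from -0.41 to 0.016 for T0070907, from -0.19 to 0.024 for the combination against vehicle, from -0.22 to 0.20 against RGZ, from -0.081 to 0.35 against T0070907 and from -0.037 to 0.45 for the interaction. *CPT2* ran from -0.028 to 0.051 for the combination against RGZ and from -0.084 to 0.0078 for the interaction. *CRAT* ran from -0.050 to 0.18 for T0070907, from -0.13 to 0.10 for the combination against T0070907 and from -0.014 to 0.22 for the interaction. *CROT* ran from -0.0059 to 0.19 for T0070907, from -0.087 to 0.17 for the combination against RGZ and from -0.16 to 0.11 for the interaction, and *SLC22A5* from -0.15 to 0.095 for the combination against vehicle and from -0.20 to 0.092 for the interaction. For the combination against T0070907, *CROT* passed without replicate 2 of the combination (-0.40, adjusted p = 0.0388 in edgeR) and *SLC22A5* without its replicate 1 (0.46, adjusted p = 0.0386).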
